A study of Mus musculus with 14 samples.

Results

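Chromatin contacts that neural precursor cells (NPCs) made and that were called neither in NPCs differentiated with auxin nor in embryonic stem cells (ESCs) are described here. A contact, or loop, is a pair of 10 kb bins called by the program MAPS from H3K4me3 PLAC-seq, which ligates DNA ends that lie close in the nucleus and enriches for chromatin with trimethylated histone H3 lysine 4. The loops were chosen as the bin pairs in the MAPS list of NPC control that were in none of the other MAPS lists, NPC auxin, ESC auxin and ESC control, at exactly the same bins. This rule gave 41482 loops, called control-only loops below, out of 82861 loops in NPC control (50.1%) and 137221 distinct bin pairs in the 4 lists. They were chosen by the calls themselves, so their absence from the NPC auxin list is a description and was not tested. They were set beside the 8993 loops that NPC auxin and NPC control shared and that both ESC lists lacked, called auxin-shared loops, because both kinds were acquired in NPCs by the same rule. NPC auxin had the larger total of contacts, 59961568 against 52337421 in NPC control, but the shorter list, with 41667 against 82861 MAPS loops.

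All cells came from the F123 mouse ES cell line with the CTCF gene fused to an auxin-inducible degron (CTCF-AID), a tag through which auxin makes a protein be degraded, and the control groups carry the same fusion. The groups were NPCs differentiated with auxin (NPC auxin) and without it (NPC control), both collected on day 4, and ESCs after 48 h of auxin (ESC auxin) and at 0 h (ESC control). Each group had 2 samples in the labels but only 1 loop list per caller, so differences between groups could not be checked against replicates, and the 95% intervals given are exact binomial ones for counting error alone. The other 3 groups of the series, with dCas9, were not analysed here. CTCF protein and gene expression were not measured in these lists, and in bulk cells a contact made in fewer cells cannot be told apart from one made less often in every cell.

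CTCF is a zinc finger protein that stops cohesin as it extrudes loops of chromatin, and pairs of CTCF sites in convergent orientation anchor many of the loops of mammalian genomes. Sites close to promoters can bring a promoter near to distant enhancers. H3K4me3 is a mark found mainly at promoters, and the loops called from the assay have a bin with a peak of it at 1 or both ends. The mark alone does not show that a gene is active.

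Because most of the loops had a promoter in an anchor bin, the sequences shown first are from promoters with many of them. Bins were ranked by their number of control-only loops, and the RefSeq promoter table (build GRCm38.p6, 250 bases before to 50 after the start) held 17 of the 20 genes at the top. Plk2 (chr13:110394794-110395093, plus strand), Efnb2 (chr8:8661193-8661492, minus strand) and Tgfb2 (chr1:186705940-186706239, minus strand) are shown as promoters with 41 to 47 control-only loops. Flrt3 (chr2:140671427-140671726, minus strand) is shown because nearly all its loops were control-only. Adra2a (chr19:54045009-54045308, plus strand) is shown because it was the one promoter of the 17 with a match to the CTCF core motif, allowing 1 mismatch; both were picked after their values were seen. Capitals mark that match, and each sequence runs 5′ to 3′ along the gene.
Plk2: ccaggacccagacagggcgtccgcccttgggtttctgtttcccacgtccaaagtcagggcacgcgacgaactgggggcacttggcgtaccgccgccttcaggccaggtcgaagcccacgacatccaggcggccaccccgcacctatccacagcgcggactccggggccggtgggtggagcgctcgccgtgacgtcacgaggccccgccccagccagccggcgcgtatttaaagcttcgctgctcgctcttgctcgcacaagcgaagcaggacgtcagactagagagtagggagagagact
Efnb2: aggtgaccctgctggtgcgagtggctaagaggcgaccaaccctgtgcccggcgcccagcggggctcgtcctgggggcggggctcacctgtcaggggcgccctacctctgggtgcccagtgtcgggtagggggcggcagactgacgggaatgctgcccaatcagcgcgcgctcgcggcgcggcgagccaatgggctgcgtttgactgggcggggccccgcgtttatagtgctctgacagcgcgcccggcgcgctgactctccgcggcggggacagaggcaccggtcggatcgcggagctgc
Tgfb2: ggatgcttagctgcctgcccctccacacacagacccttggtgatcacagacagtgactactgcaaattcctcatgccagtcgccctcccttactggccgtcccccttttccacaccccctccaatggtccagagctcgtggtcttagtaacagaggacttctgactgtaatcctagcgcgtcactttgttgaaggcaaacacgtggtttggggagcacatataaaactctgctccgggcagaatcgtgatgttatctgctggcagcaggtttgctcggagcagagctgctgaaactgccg
Flrt3: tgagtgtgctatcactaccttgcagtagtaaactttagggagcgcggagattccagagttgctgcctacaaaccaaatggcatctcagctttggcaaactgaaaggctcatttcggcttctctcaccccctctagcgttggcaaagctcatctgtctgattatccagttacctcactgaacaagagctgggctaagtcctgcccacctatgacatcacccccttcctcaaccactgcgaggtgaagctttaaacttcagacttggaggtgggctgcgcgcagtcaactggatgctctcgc
Adra2a: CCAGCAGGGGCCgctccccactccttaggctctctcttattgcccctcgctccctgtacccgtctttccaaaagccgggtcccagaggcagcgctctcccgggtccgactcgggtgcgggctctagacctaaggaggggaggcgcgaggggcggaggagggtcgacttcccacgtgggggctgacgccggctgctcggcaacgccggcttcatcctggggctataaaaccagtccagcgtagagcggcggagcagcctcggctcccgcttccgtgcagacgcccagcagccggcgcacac

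The 12-letter CTCF core motif was searched on both strands of these 300-base windows, and it was no more frequent at promoters with control-only loops than at other marked promoters. A match with at most 1 mismatch was present in 504 of 8660 promoters in bins with a control-only loop (5.82%, interval 5.34 to 6.33%). In the 1427 promoters of marked bins without a control-only loop, none of them among the 8660, the share was 6.10% (4.91 to 7.47%). The share was 5.49% in 3605 promoters in bins with an auxin-shared loop. It was 5.86% in 10087 promoters in all bins marked by H3K4me3 in NPC control and 4.53% in all 21263 coding promoters. These last 3 sets overlap the 8660, so they are not separate comparisons. The 10087 contain all of the 8660, so their share could differ little. The share in all coding promoters (4.26 to 4.82%) was below that of the 8660. Promoters with control-only but no auxin-shared loops had 5.83% of 5525. Among 538 promoters in bins with 10 or more control-only loops it was 4.83% (3.18 to 7.0%). A match is a description of the letters in the window and does not show binding, and CTCF sites farther from the start were not searched.

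Control-only loops joined a marked bin to a bin without the mark more often than auxin-shared loops did, and they spanned shorter distances. Of the control-only loops 13.7% (13.4 to 14.1%) had an H3K4me3 peak bin at both anchors, against 22.5% (21.6 to 23.4%) of the auxin-shared loops. The difference had the same sign on 19 of 19 autosomes and ran from -13.9 to -3.84 percentage points. The median distance between anchors was 270 kb for control-only loops, with quartiles of 170 and 430 kb, and 330 kb for auxin-shared loops, with quartiles of 210 and 500 kb. On the 19 autosomes the difference of the medians lay between -80 and -25 kb. The direction of this distance difference depended on the caller, since the same rule on the FitHiChIP lists gave a difference of 10 kb in the opposite direction. For comparison, the 32386 NPC control loops that an ESC list also held had a median of 230 kb and peak bins at both anchors in 25.1%.

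**Figure D1:**
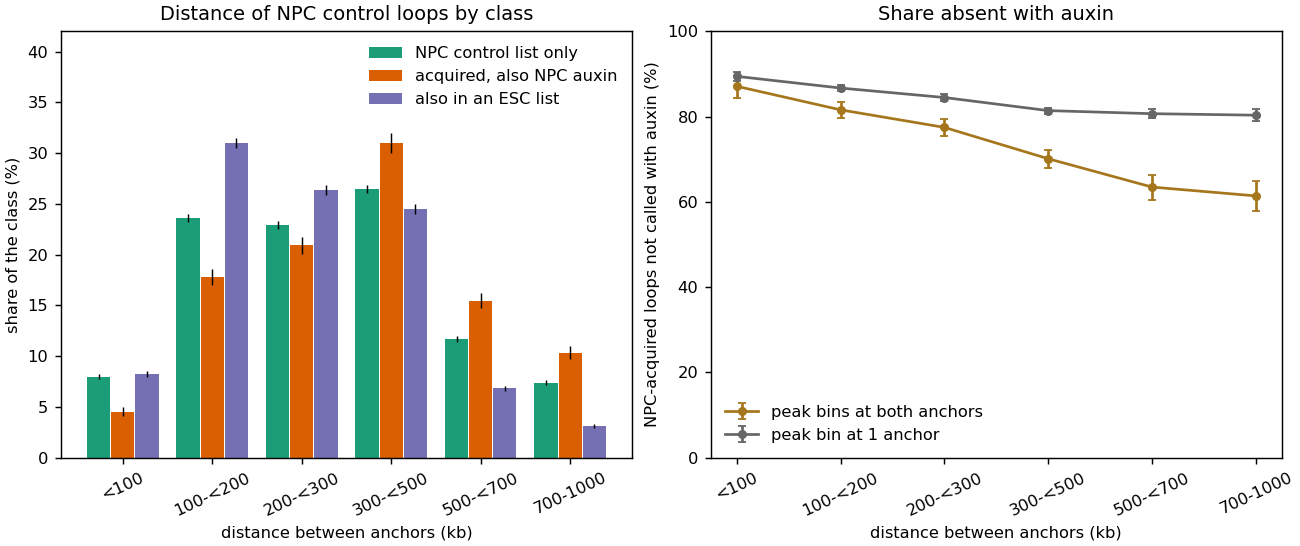
Left, the share of each class of NPC control loops (y axis, percent) in 6 classes of distance between the anchors (x axis, kb), for loops in the NPC control list only, acquired loops also in NPC auxin, and loops also in an ESC list. Right, the share of NPC-acquired loops not called with auxin (y axis, percent) by the same distance classes, for loops with a peak bin at 1 anchor or at both. Whiskers are exact binomial 95% intervals. The line for peak bins at both anchors runs from 87.1% at the shortest to 61.4% at the longest distances, and that for 1 anchor from 89.4 to 80.3%.

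Of all 50475 NPC-acquired loops 82.2% were control-only, beside a background in which 73% of all NPC control loops were not called in NPC auxin and 60.9% were in neither ESC list. The share fell with distance, with 89.0% under 100 kb and 76.8% between 700 kb and 1 Mb. The decrease was steeper between marked bins. With peak bins at both anchors, 87.1% of acquired loops under 100 kb and 61.4% of those of 700 kb to 1 Mb were control-only. With a peak bin at 1 anchor the shares were 89.4 and 80.3%. Long acquired contacts between 2 marked bins were thus, of these classes, the ones most often called again in NPC auxin.

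The strength of the call moved with this share. The authors' FDR chose the loops in each list, so these values are a description. The control-only share was 70.1% in the 10095 acquired loops with the lowest FDR in NPC control, the first of 5 equal classes, and 88.7% in the class with the highest. Control-only loops had a median of 21 reads and a ratio of reads to expected reads of 2.90, against 25 reads and 3.16 for auxin-shared loops. Loops with peak bins at both anchors had a lower control-only share than those with 1 in all 5 classes of the FDR, with 66.6 against 70.9% in the lowest class and 81.9 against 89.6% in the highest. At the edge of the rule, the control-only loop with the highest FDR, on chromosome 10, had 15 reads and an FDR of 0.009996. The auxin-shared loop with the highest NPC auxin FDR, on chromosome 19, had 12 reads in NPC auxin and 12 in NPC control, with an FDR of 0.009998 in NPC auxin. The ceiling of the deposited lists is 0.01, so loops on either side of the rule can differ by little.

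The label of absence holds for exact bins, and many control-only loops had a call close by in another list. A call with both anchors within 1 bin was present in NPC auxin for 27.6% of them, in ESC auxin for 14.1% and in ESC control for 36.1%. None of these 3 lists had such a call for 20736 loops (49.99%), and none had one within 2 bins for 15048 loops (36.3%). NPC auxin and NPC control reads at the auxin-shared loops had medians of 25 and 25, not scaled for the larger total of NPC auxin. The median of the log2 ratio of NPC auxin to NPC control reads at those loops was 0, with quartiles of -0.22 and 0.25, and each of them had to pass the threshold in both lists.

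A second caller gave the contact counts that the MAPS lists lack. FitHiChIP called 8815 of the control-only loops in NPC control (21.3%), where it called 33.1% of all NPC control loops at the same bins. It called 568 of those 8815 in NPC auxin too (6.44%), against 1805 of 3610 auxin-shared loops. At the 568 loops the median was 58.5 contacts in NPC auxin and 64 in NPC control, and 418 of them had fewer contacts in NPC auxin. The median log2 ratio was -0.17, and -0.37 after scaling by the total contacts. At the 1805 auxin-shared loops both medians were 29 contacts and the log2 ratio was 0.05, or -0.15 after scaling. Both callers used the same samples, so the low share in FitHiChIP is a description and not independent support. A pair had to pass the FitHiChIP threshold in both lists to enter these medians.

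H3K4me3 itself could be followed only in part. The lists of the 2 NPC groups marked 26469 of 26469 shared bins alike, so they hold no information on a change of the mark with auxin. The short-range reads of each bin, which the caller uses as a measure of the pulldown, could be compared at the 9209 of 13713 peak anchor bins of control-only loops that still anchored some loop in NPC auxin. There their median log2 ratio of NPC auxin to NPC control was -0.07 relative to all bins in both lists, and -0.09 at the peak anchors of auxin-shared loops. Between NPC control and ESC control the same ratio was 0.37 at peak anchors of control-only loops and 0.52 at those of auxin-shared loops. An ESC list also marked a peak anchor in 88.2% of the control-only loops, and 8.64% had peak anchors that no ESC list contained. For auxin-shared loops these shares were 92.3 and 4.47%. In both kinds most loops thus had a peak anchor that was marked in ESCs already, and short-range reads there were higher in NPC control. The part of that signal in the calls was not tested.

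Control-only loops were spread widely over the genome and came partly in groups. They made up between 41.2% of the NPC control loops on chromosome 11 and 57.8% on chromosome 3. Joining pairs that touch left 27207 clusters, of which 19183 were single pairs (46.2% of the loops) and 703 held 5 or more. The largest cluster had 25 adjacent pairs. Loops are therefore not independent of each other, and the intervals are likely too narrow. At the 35792 anchors without a peak, 56.8% overlapped the body of a coding gene, against 57.6% for auxin-shared loops, and the median GC content was 43.6% at both. Of the distinct unmarked bins at control-only loops 24.6% anchored some other loop in NPC auxin, whereas 67.2% of the marked bins did. Over all NPC control loops these shares were 37.5% of unmarked and 68.0% of marked bins. The rule lowers the share for unmarked bins, since 22468 of the 28281 carried a single control-only loop.

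A promoter bin was a peak bin of NPC control with the start of a coding gene or, for genes without a start in the table, with a gene end. There were 9208 of them, and 7963 (86.5%) held at least 1 control-only loop, so holding 1 is no mark of a gene. Of the control-only loops 68.1% had a promoter bin at 1 or both anchors, against 76.1% of the auxin-shared loops. The rest had none. Bins with a control-only loop held a median of 2, and 544 bins had 10 or more. In 2412 of the 7963 bins (30.3%) the MAPS list of NPC auxin had no loop. Of the 2046 bins with 5 or more control-only loops, 261 had none in NPC auxin and 236 had none in the ESC lists. MAPS loops in NPC control alone were at 67 of them, although FitHiChIP listed loops of other groups at some of these. Summed over all 9208 promoter bins, MAPS had 32943 loops in NPC auxin and 62252 in NPC control. The share of all promoter bins without an NPC auxin loop is not given here, so these counts are no trait of bins with control-only loops. The bin of Cdh2, the gene of N-cadherin, held 17 loops in NPC control and 0 in the other MAPS lists, and FitHiChIP called 2 in NPC auxin and 6 in NPC control there. Nova1, a neuronal splicing regulator, had 14 loops in NPC control and 0 in the other MAPS lists, and FitHiChIP called 1 in NPC auxin and 7 in NPC control. At Ezh2, the methyltransferase of Polycomb complex PRC2, NPC control had 9 loops and the other MAPS lists 0, and FitHiChIP called none in NPC auxin or NPC control.

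In the 831 promoter bins with at least 10 acquired loops, a median of 79.4% were control-only, with quartiles of 64.3 and 90.9%. All of them were in 116 bins, and under 50% in 64 bins. Where a bin held at least 3 loops of each kind, the control-only partners were nearer to the promoter by their median in 426 of 703 bins and farther in 268. Within those bins the median difference was -35 kb.

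The 20 promoter bins with the most control-only loops each belonged to 1 coding gene and held 34 to 49 of them. Together they held 374 loops in NPC auxin and 1229 in NPC control, and 66 in ESC auxin and 241 in ESC control. All 20 had fewer loops in NPC auxin than in NPC control in both callers. FitHiChIP called 182 loops in NPC auxin and 849 in NPC control there. Since the bins were ranked by loops absent with auxin, this direction follows from the choice. Their short-range reads were close to those of other bins with auxin, with a median log2 ratio of NPC auxin to NPC control of -0.07 relative to all bins. The range was -0.29 to 0.08, and 4 of the 20 bins lay above 0. Between NPC control and ESC control these reads were higher in 19 of the 19 bins in both lists. There the median was 1.16 on the log2 scale, with a range of 0.54 to 1.89 relative to all bins. The caller uses short-range reads in its calls, so these values are not independent of the ranking.

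**Figure D2:**
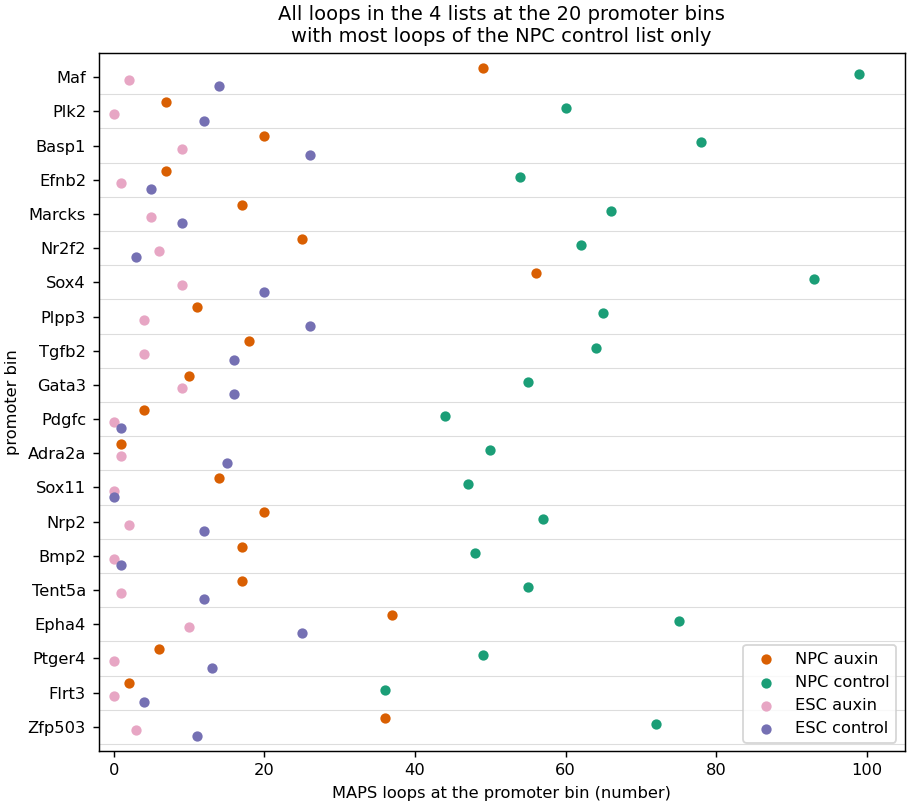
Loops in the 4 MAPS lists (x axis, number) at the 20 promoter bins with the most control-only loops (y axis, most at the top), with NPC auxin, NPC control, ESC auxin and ESC control from top to bottom within each row. NPC control has the highest number in every row, up to 99 at Maf, while NPC auxin ranges from 1 at Adra2a to 56 at Sox4.

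Among transcription factors, Maf, a basic leucine zipper protein, had the most control-only loops. Its bin (chr8:115700001-115710000) held 49 loops in NPC auxin and 99 in NPC control, of which 49 were control-only and 38 auxin-shared. Nr2f2, the nuclear receptor COUP-TFII, held 25 loops in NPC auxin and 62 in NPC control, with 42 control-only. Sox4 and Sox11 encode related factors of neural differentiation. The Sox4 bin held 56 loops in NPC auxin and 93 in NPC control, and that of Sox11 held 14 in NPC auxin and 47 in NPC control, with 0 in both ESC lists. Gata3, a zinc finger factor, held 10 in NPC auxin and 55 in NPC control, and Zfp503, a zinc finger repressor, held 36 in NPC auxin and 72 in NPC control. Maf, Sox4 and Zfp503 were thus bins with many loops in NPC auxin as well, whereas Gata3 and Sox11 had few.

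Among signalling ligands, Tgfb2, a TGF-beta, held 18 loops in NPC auxin and 64 in NPC control, with 4 in ESC auxin and 16 in ESC control. All 41 control-only partners of Tgfb2 lay at lower coordinates, from 120 to 970 kb away. Bmp2, a bone morphogenetic protein, held 17 in NPC auxin and 48 in NPC control, and its control-only loops reached up to 98 reads. Pdgfc, a platelet-derived growth factor, held 4 in NPC auxin and 44 in NPC control, with 0 in ESC auxin and 1 in ESC control. Efnb2, the ligand ephrin-B2, held 7 in NPC auxin and 54 in NPC control. The strongest control-only loop of Efnb2 by FDR joined it to chr8:8220001-8230000, 440 kb away and free of coding genes, with 41 reads against 7.03 expected. FitHiChIP gave that pair 41 contacts in NPC control and did not list it in NPC auxin.

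Among receptors and surface proteins, Epha4, a receptor of ephrins, held 37 loops in NPC auxin and 75 in NPC control, and Nrp2, a coreceptor of semaphorins and VEGF, held 20 in NPC auxin and 57 in NPC control. Adra2a, an adrenergic receptor, held 1 in NPC auxin and 50 in NPC control, with 1 in ESC auxin and 15 in ESC control. FitHiChIP called 19 loops in NPC auxin and 43 in NPC control at Adra2a, a smaller difference than in MAPS. Ptger4, a prostaglandin E2 receptor, held 6 in NPC auxin and 49 in NPC control. Flrt3, a transmembrane adhesion protein, held 2 in NPC auxin and 36 in NPC control, of which 35 were control-only. The Flrt3 partners differed in side between the groups. All 36 in NPC control lay at higher coordinates, and the 3 control-only loops of lowest FDR ended in bins over Macrod2. The 2 in NPC auxin lay 500 and 520 kb away at lower coordinates, with 26 and 16 reads.

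Among the remaining bins, Plk2, a polo-like kinase, held 7 loops in NPC auxin and 60 in NPC control, with 0 in ESC auxin and 12 in ESC control. All 47 control-only partners of Plk2 lay at higher coordinates, between 250 and 1000 kb away. The 7 partners in NPC auxin lay at 500 to 580 kb and at 800 to 850 kb, and all but the one at 800 kb were also called in ESC control. The pair 570 kb away had 26 reads in NPC auxin, 115 in NPC control and 40 in ESC control. Basp1, a membrane protein of nerve growth cones, held 20 in NPC auxin and 78 in NPC control, and Marcks, an actin-binding substrate of protein kinase C, held 17 in NPC auxin and 66 in NPC control. Plpp3, a lipid phosphate phosphatase, held 11 in NPC auxin and 65 in NPC control. Tent5a, a poly(A) polymerase, held 17 in NPC auxin and 55 in NPC control.

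**Figure D3:**
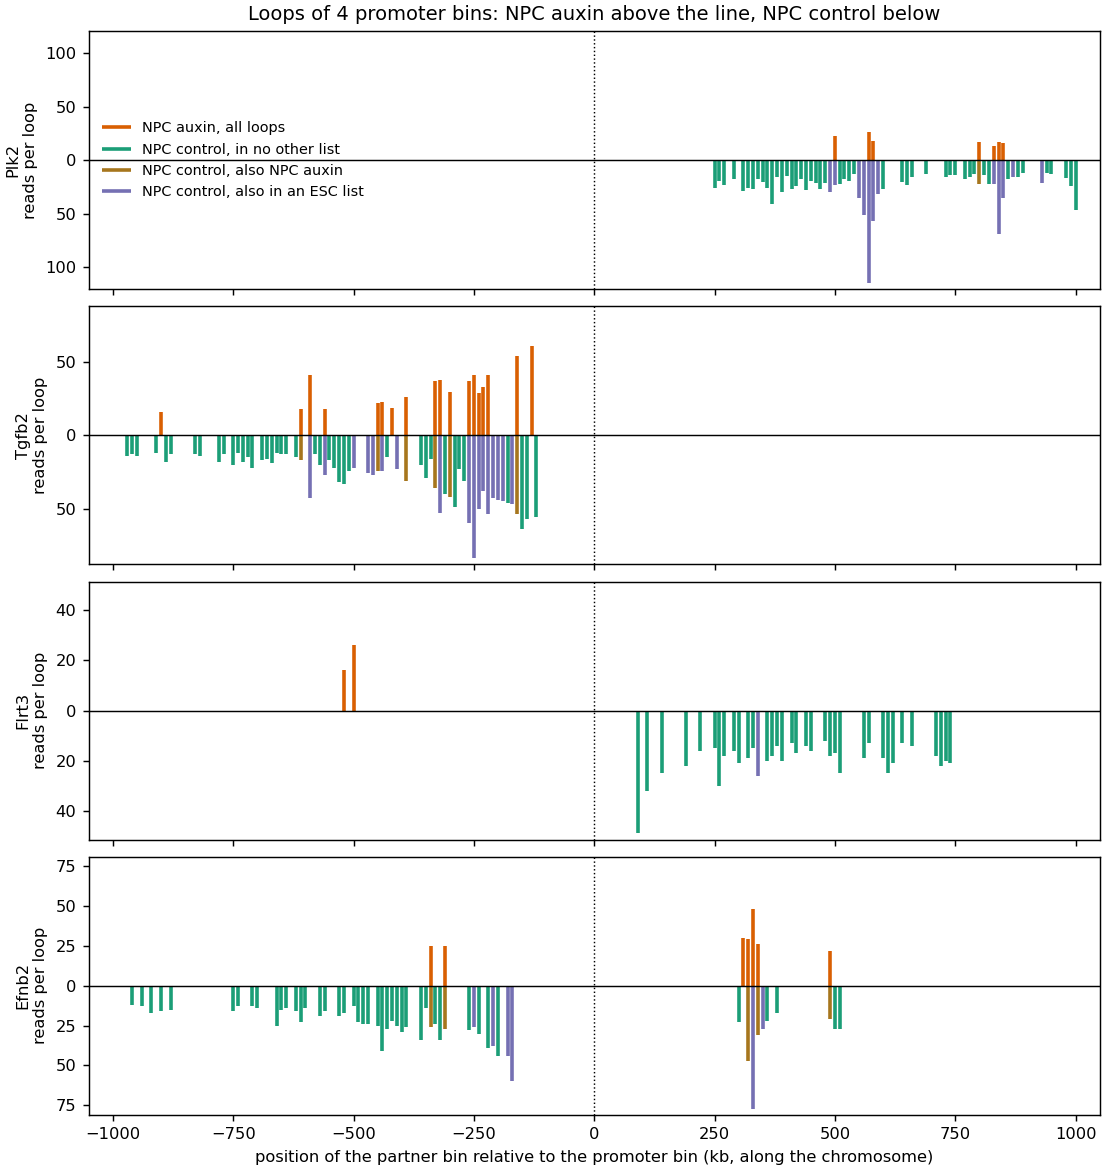
Loops of the promoter bins of Plk2, Tgfb2, Flrt3 and Efnb2, one panel each. The x axis is the position of the partner bin relative to the promoter bin in kb along the chromosome, and bar length is the reads of the loop, upward for NPC auxin and downward for NPC control, with colours for control-only loops, auxin-shared loops and loops also in an ESC list. Control-only loops fill long stretches on 1 side of Plk2, Tgfb2 and Flrt3, those of Efnb2 number 38 on 1 side and 5 on the other, and the Flrt3 bars of NPC auxin stand on the other side of the promoter.

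Partners of a promoter tended to lie on 1 side of it. In 1043 of the 2046 bins with 5 or more control-only loops all partners were on the same side (51.0%), and in 217 of the 544 bins with 10 or more (39.9%). At least 80% were on 1 side in 71.7% of the 544 bins. In 7 of the 20 named bins all partners were on 1 side. Where a bin had at least 5 control-only and 5 auxin-shared loops and neither kind was evenly split, the larger side was the same for both in 225 of 255 bins (88.2%, 83.6 to 91.9%). The side with more control-only partners was the one toward which the gene is read for 53.6% of 2163 promoters (51.5 to 55.7%). Each start site counted as 1 promoter, and promoters in 1 bin share the same side, so this interval is likely too narrow. For promoters with a CTCF core motif allowing 1 mismatch, the motif pointed to that side in 79 of 136 (58.1%, 49.3 to 66.5%) at bins with 5 or more loops and in 12 of 26 (46.2%) at bins with 10 or more. The interval at 10 or more loops ran from 26.6 to 66.6%, so both intervals of the motif direction include 50%.

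The partners of the promoters with most loops lay mostly outside coding genes. At the 20 named bins 22.1% of 796 control-only partners overlapped a coding gene (19.3 to 25.2%), against 41.2% of 211 auxin-shared partners (34.5 to 48.2%). The auxin-shared loops came unevenly from these bins, with 38 at Maf, 33 at Sox4, 26 at Zfp503 and 0 at Flrt3. The 2 pooled shares thus weigh the bins differently, and the kinds were not compared within each bin. The share of control-only partners was 47.2% in the 544 bins with 10 or more control-only loops, 69.5% with 5 to 9 and 70.3% with 1 to 4. For auxin-shared partners the shares in the same 3 classes of bins were 52.8, 72.7 and 73.9%. In both kinds the share was thus lower at bins with 10 or more control-only loops. At Plk2, Basp1, Efnb2, Tgfb2 and Maf, the 3 control-only loops of lowest FDR each ended in bins without a coding gene.

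The single control-only loop with the lowest FDR joined Basp1 to chr15:24720001-24730000, 690 kb away. It had 90 reads against 3.75 expected, a ratio of 24.0 and an FDR of 9.10e-86, and FitHiChIP listed it with 96 contacts in NPC control and 14 in ESC control. A further one joined Arl4a, a small GTPase, to a bin 530 kb away with 57 reads against 3.33 expected. NPC auxin and an ESC list each had a call within 1 bin of the Arl4a pair. Both belong to the 10 of lowest FDR with a promoter bin, for which only 1 loop per promoter bin was taken. A second Basp1 loop, 820 kb long with 60 reads and an FDR of 2.31e-58, was therefore left out. The other 8 of these 10 were short pairs of 20 to 40 kb, with 331 to 636 reads. Their ratios were 2.15 to 2.62, not far above the lowest ratio of 2.00 in the lists. They ended at Igf2bp1, Anp32a, Gpr19, Ercc1, Etf1, Tnpo2, Actb and Slc7a6. Igf2bp1, an mRNA-binding protein, had 576 reads against 241 expected at 20 kb, and Actb, a cytoskeletal actin, 434 against 189 at 20 kb. FitHiChIP listed the Igf2bp1 pair with 448 contacts in NPC auxin, 554 in NPC control, 306 in ESC auxin and 363 in ESC control. Of these 10 loops, 4 were listed by FitHiChIP in all 4 groups, those at Igf2bp1, Gpr19, Ercc1 and Actb, and 5 were listed in NPC auxin, with Tnpo2. The Anp32a pair was in neither NPC list of FitHiChIP, but had 297 contacts in ESC auxin and 389 in ESC control. The pairs at Etf1 and Slc7a6 were in no FitHiChIP list.

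Genes of developmental pathways were described by lists, each by the control-only share of its acquired loops, beside 79.8% over all promoter bins. The lists were chosen with results of these data known and do not give independent support. Of the 16 lists 5 lay above that share and 11 below. The neural progenitor genes had 524 of 639 acquired loops control-only (82.0%), and 40 of their 43 bins had fewer loops in NPC auxin than in NPC control and 2 had more. Over all promoter bins 7044 of 9208 had fewer in NPC auxin and 1285 more. Irx3, a homeodomain factor, held 27 loops in NPC auxin and 63 in NPC control. The neuron genes had 99 of 141 (70.2%), with Ebf3 at 15 loops in NPC auxin and 62 in NPC control. Onecut1, a homeodomain factor, held 21 in NPC auxin and 35 in NPC control.

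The classical cadherins, adhesion proteins of cell junctions, had 51 of 52 acquired loops control-only (98.1%), over 10 bins that all had fewer loops in NPC auxin. Cdh2 gave 17 of the 51 and Cdh4 10, with 5 loops in NPC auxin and 11 in NPC control at Cdh4. The epithelial gene Cdh1 gave 1. Partners of Cdh2 lay at lower coordinates, 120 to 600 kb away, and the strongest by FDR, at 590 kb, had 26 reads against 3.75 expected. Ephrins and Eph receptors had 159 of 210 (75.7%), of which Efnb2 gave 43 and Epha4 36.

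Retinoic acid genes had the lowest control-only share of the 16 lists, 106 of 170 (62.4%). Nrip1, a nuclear receptor corepressor, held 29 loops in NPC auxin and 53 in NPC control, and Rarb, a retinoic acid receptor, held 9 in NPC auxin and 26 in NPC control. Notch pathway genes had 58 of 84 (69.0%), FGF pathway genes 111 of 159 (69.8%), TGF-beta and BMP pathway genes 285 of 370 (77.0%), hedgehog pathway genes 93 of 121 (76.9%) and Wnt pathway genes 201 of 250 (80.4%). The ligand gene Jag1 of the Notch pathway held 10 in NPC auxin and 28 in NPC control. Fgfr2, an FGF receptor, held 34 in NPC auxin and 58 in NPC control, and Spry2, an inhibitor of the pathway, held 41 in NPC auxin and 47 in NPC control. Ptch1, the hedgehog receptor, held 9 in NPC auxin and 36 in NPC control, and the transcription factor gene Gli3 16 in NPC auxin and 30 in NPC control. Fzd8, a Wnt receptor, held 8 in NPC auxin and 26 in NPC control, and Rspo3, a ligand that enhances Wnt signals, 2 in NPC auxin and 24 in NPC control. Spry2 thus had nearly as many loops in NPC auxin as in NPC control, whereas Rspo3 had few.

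**Figure D4:**
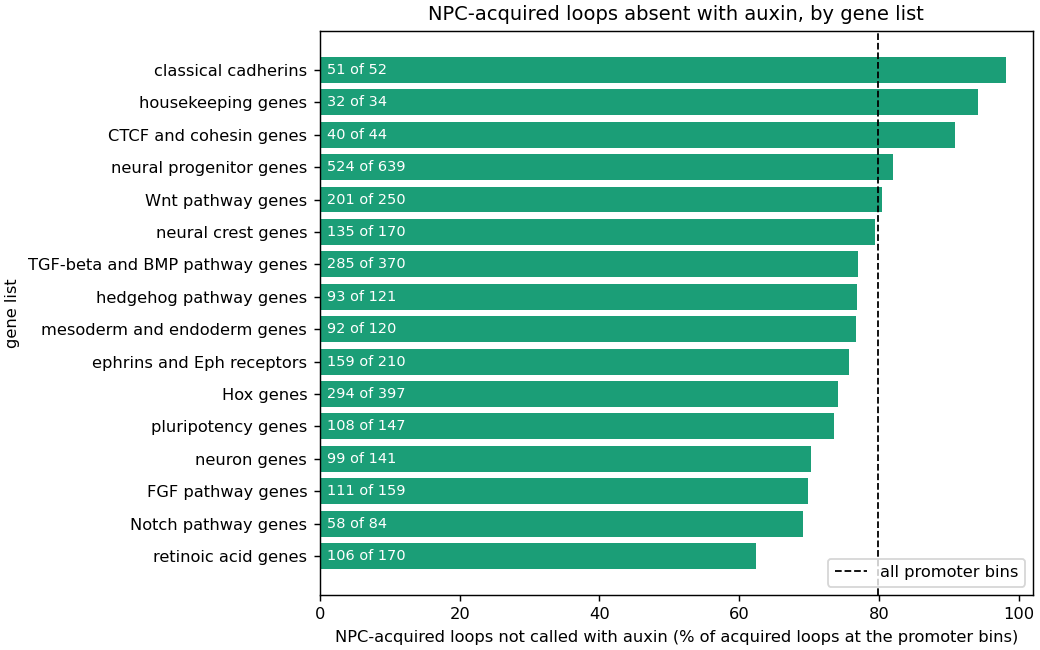
Share of NPC-acquired loops not called with auxin (x axis, percent) at the promoter bins of 16 gene lists (y axis, highest share at the top), with the number of control-only loops out of all acquired loops in each bar. The dashed line is the share of 79.8% over all promoter bins. Classical cadherins lie highest with 98.1% and retinoic acid genes lowest with 62.4%.

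Lists for other cell types had loops of this kind too. Pluripotency genes had 108 of 147 acquired loops control-only (73.5%). The 108 came mostly from few genes, with 25 at Myc, 23 at Klf4, 23 at Sox2 and 18 at Mycn. Sox2 also stands in the neural progenitor list. Esrrb gave 2, Nanog 1 and Pou5f1 0. Of these genes, Myc held 54 loops in NPC auxin and 83 in NPC control, and Klf4, a reprogramming factor, held 5 in NPC auxin and 26 in NPC control. Mesoderm and endoderm genes had 92 of 120 (76.7%) and neural crest genes 135 of 170 (79.4%). Hand2, a factor of heart and limb mesoderm, held 22 in NPC auxin and 38 in NPC control, and Twist1, which stands in both of those lists, 10 in NPC auxin and 27 in NPC control. Dlx6, a homeodomain factor, held 10 in NPC auxin and 46 in NPC control, and Tfap2a, a neural crest factor, 11 in NPC auxin and 37 in NPC control. Acquired loops were therefore present at promoters outside the neural lists, and how many cells of another type the cultures held was not tested.

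Hox genes, the clustered homeodomain genes of body position, had 294 of 397 (74.1%). Hoxd11 held 17 loops in NPC auxin and 48 in NPC control, and Hoxa9 held 29 in NPC auxin and 64 in NPC control. Neighbouring Hox genes share bins, so their loops are not independent. The genes of CTCF, cohesin and their cofactors had 40 of 44 acquired loops control-only (90.9%), with Stag1, a cohesin subunit, at 4 loops in NPC auxin and 16 in NPC control, and Pds5b, a cohesin regulator, at 2 in NPC auxin and 7 in NPC control. Housekeeping genes had 32 of 34 (94.1%), with Emc7 at 0 in NPC auxin and 7 in NPC control, and Tbp at 3 in NPC auxin and 6 in NPC control. The shares of the CTCF and cohesin list, of the housekeeping list and of the classical cadherins rest on few loops.

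Vcan, the versican gene whose locus the study targeted with dCas9, had 0 MAPS loops in NPC auxin and 14 in NPC control, of which 10 were control-only. FitHiChIP called 1 loop there in NPC auxin and 18 in NPC control. All 10 lay at higher coordinates, 270 to 1000 kb away. The one of lowest FDR reached a bin over the DNA repair gene Xrcc4, with 28 reads against 8.45 expected and an FDR of 2.60e-06. The other 4 loops in NPC control were also in ESC control. Vcan thus had fewer control-only loops than any of the 20 named bins, which held 34 to 49.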

How the data were processed

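H3K4me3 PLAC-seq lists of 4 groups (8 of 14 samples, 2 per group) were used. BWA, Picard and the build mm10 are named, with no versions, in the submitters' processing notes. The labels name the callers MAPS and FitHiChIP. Nothing used here states if the 2 samples of a group were merged first. Per the file headers, the authors' MAPS lists give read counts per pair of 10 kb bins, the expected reads (a signal of the caller's model), the ratio of the count to it, the FDR (treated as a q-value), the GC fraction of each bin and its short-range reads. The deposited FitHiChIP lists give contact counts, q-values and the expected fraction of contacts. Total contacts behind the FitHiChIP lists, recovered from the deposited expected contacts and fraction, were 59961568 in NPC auxin, 52337421 in NPC control, 48307867 in ESC auxin and 47519917 in ESC control. MAPS listed 41667 loops in NPC auxin, 82861 in NPC control, 27610 in ESC auxin and 56714 in ESC control, over 19 autosomes and 20 to 1000 kb, all with at least 12 reads, a ratio of at least 2.00 and an FDR under 0.01. The list of a group with fewer reads or weaker pulldown can hold fewer loops.

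Loops were matched by exact bins with Python 3.11.15, pandas 2.3.3, NumPy 2.4.6 and SciPy 1.17.1, and figures were drawn with matplotlib 3.10.9. The matching, the clustering of touching pairs and the motif search were checked on simulated data. Shares carry Clopper-Pearson 95% intervals. With 1 list per group no test was made and no p-value is given. Of 21900 coding genes in the RefSeq table (GRCm38.p6, the chromosomes of mm10), 8402 had a start site in a peak bin of NPC control, 1873 without a start site were placed by a gene end in such a bin, and 428 with ends in different peak bins were left out. Of the genes named, Maf, Marcks, Bmp2, Cdh1, Cdh2, Cdh4, Dlx6, Fzd8, Rspo3, Myc, Actb, Etf1 and Igf2bp1 were placed by a gene end. A bin can hold promoters of several genes, and antisense or neighbouring genes in 1 bin cannot be told apart. The members and the gene lists were chosen with earlier results of these data known. Genes were named by rule, as the 20 promoter bins with the most control-only loops (ties by lower FDR) and 2 genes of each list with the most. The promoters of the 10 control-only loops of lowest FDR, taking 1 loop per promoter bin, and Vcan were named too. Nova1, Ezh2, Irx3 and Cdh1 were named after their values were seen. The 6 samples of the 3 dCas9 groups were not analysed here.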

Additional observations from a re-analysis of the deposited data

How the results depend on the processing

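No paired analysis was possible because each group had 1 list per caller, whose columns carry no replicate number, and for the same reason no sample could be left out. The rule gave 41482 loops. Allowing each anchor to differ by 1 bin gave 20736 loops, which were 25.025% of NPC control loops, with a median of 290 kb and 11.96% with peak bins at both anchors, and the differences to auxin-shared loops were -70 kb and -6.33 percentage points. Allowing 2 bins gave 15048 loops, 18.2%, 310 kb, 11.7% and -5.49 points. The FitHiChIP lists gave 20334 loops, 45.3%, 420 kb, 38.5%, a reversed distance difference of 10 kb and -32.8 points. An FDR under 0.0001 in NPC control gave 18320 loops, 38.7%, 260 kb, 15.9% and -7.06 points. At least 20 reads gave 23969 loops, 41.8%, 200 kb, 17.1%, -70 kb and -7.32 points. Keeping pairs with a peak anchor marked in ESCs gave 47.4%, 15.1% and -50 kb. Using 1 pair per cluster gave 17759 loops, 60.8%, 15.6% and -15.2 points. The causes were not tested. The peak difference kept its sign in all 7 alternatives and the distance difference in 6. The CTCF core motif share was 0.84% with no mismatch and 36.5% with 2. At the named bins, the number of control-only loops moved by over 1.5 times in 10 of 20 bins with 1 bin allowed, 17 with 2 bins, 6 with FitHiChIP and 3 when neighbouring bins were counted too. Loops under 12 reads are not in the lists, so an absent loop may have been below that depth.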
